A study of Mus musculus with 12 samples.

Results

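The comparison described here is the effect of *Gli3* deletion on the protein-coding genes of quiescent satellite cells (QSCs). Of the 25093 genes in the deposited count table, 16583 carry the biotype protein_coding, and 452 of those have a predicted-gene symbol (Gm and a number) and were set aside, which left 16131 genes. Of these 16131 genes, 12262 had a mean of at least 1 CPM over the 6 quiescent libraries, 3869 lay below that level and 118 had no count in any of the 6. CPM is the count of a gene scaled to a fixed library total, after edgeR's TMM scaling of the library sizes. CPM does not correct for gene length, so levels are compared between libraries and not between genes.

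The series holds 12 libraries, and the 6 used here are quiescent cells of 2 genotypes with 3 libraries each. Control cells came from Pax7-CreERT2/+;Gli3+/+;R26R-YFP mice and deleted cells from Pax7-CreERT2/+;Gli3fl/fl;R26R-YFP mice; they are called *Gli3*+/+ and *Gli3*∆/∆. Both genotypes carried the tamoxifen-inducible recombinase downstream of *Pax7* and the YFP reporter, both received tamoxifen, and both were 3 to 4 months old on a mixed 129SV and C57BL/6 background. Cells were sorted from uninjured hindlimb muscles as α7-Integrin+ CD34+ and CD31- CD45- SCA1- CD11b-, and each library pooled 2 to 3 mice. The libraries are thus replicates of pools, the recombinase acts in cells that express *Pax7*, and the study notes that sorting itself activates the cells in part.

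Satellite cells are the stem cells of skeletal muscle; they lie under the basal lamina of the fiber, express *Pax7* and are quiescent in resting muscle. GLI3 is a zinc finger transcription factor of the Hedgehog pathway. Without Hedgehog signal it is cut at the primary cilium into a repressor of GLI target genes, and with signal its full-length form can activate them. G-Alert is a state in which quiescent satellite cells, still outside the cell cycle, are larger, richer in mitochondrial activity and quicker to enter division, and it depends on mTORC1 signaling.

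The *Gli3*+/+ libraries held 39556784, 65340069 and 47007056 estimated counts and the *Gli3*∆/∆ libraries 51913963, 65750131 and 50417695. The protein-coding genes described here took 93.1 to 93.9% of each library. *Pax7* was at 884 to 1052 CPM in *Gli3*+/+ and 798 to 1157 CPM in *Gli3*∆/∆ libraries, and *Itga7*, which encodes α7-Integrin, at 373 to 555 CPM over all 6. The genes of the sorted-out antigens were low for CD45 (*Ptprc*, 0.252 to 2.11 CPM), CD11b (*Itgam*, 0 to 1.54 CPM) and SCA1 (*Ly6a*, 4.21 to 8.34 CPM), while *Pecam1*, which encodes CD31, was counted at 22.5 to 40.1 CPM. All 11 satellite cell markers were above 1 CPM, 0 of them were called by edgeR or DESeq2, and 1 had an unadjusted p under 0.05.

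The deletion removes exon 8 of *Gli3*, so the targeted gene is described first. *Gli3* (ENSMUSG00000021318.15, GRCm38 chromosome 13, 15463235 to 15730026, plus strand) was counted at 11.2, 9.71 and 9.75 CPM in the *Gli3*+/+ libraries against 9.54, 10.5 and 6.26 CPM in *Gli3*∆/∆ ones. The genotypes overlapped, with the lowest value in *Gli3*∆/∆ replicate 3. The log2 fold change of *Gli3*∆/∆ over *Gli3*+/+ was −0.22 (SE 0.22, adjusted p = 0.916 by the quasi-likelihood test of edgeR, with the Benjamini-Hochberg method applied over all 25093 genes), and without *Gli3*∆/∆ replicate 3 it was −0.03 (adjusted p = 1 from edgeR). In GENCODE vM21 the longest coding transcript of *Gli3* has 15 exons and 8170 bases, and its exon 8 lies at 15659962 to 15660175, is coding throughout, and makes up 214 bases or 2.62% of the transcript. That length leaves a remainder of 1 when divided by 3. The deposited values are totals per gene and do not resolve exons, so they give no check of the excision, and the genotypes are taken from the labels. The exon numbered 8 in that transcript is printed here as the stretch whose loss defines the *Gli3*∆/∆ group; whether the floxed interval has the same borders is not given in the sources used here.
Gli3 exon 8: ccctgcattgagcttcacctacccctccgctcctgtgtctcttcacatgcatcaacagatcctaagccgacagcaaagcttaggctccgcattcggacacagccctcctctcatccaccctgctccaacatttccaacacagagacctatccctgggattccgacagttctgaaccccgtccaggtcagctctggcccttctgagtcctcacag

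Among the 16131 protein-coding genes, 37 were called between *Gli3*∆/∆ and *Gli3*+/+ QSCs with an adjusted p below 0.05 and a change of 1.2-fold or more, or 0.229% of those tested. Of these, 23 (0.143%) rose and 14 (0.0868%) fell in *Gli3*∆/∆ cells. For each of the 37 the 3 libraries of one genotype lay apart from the 3 of the other. Such separation alone was common: the genotypes did not overlap for 2115 genes or 13.1%, 1106 of them higher and 1009 lower in *Gli3*∆/∆ cells, and 1160 genes (7.19%) had an unadjusted p under 0.05. The median log2 fold change over all 16131 genes was −0.02. DESeq2 called 222 of the genes (1.38%), 121 higher (0.75%) and 101 lower (0.626%), and all 37 calls of edgeR were among them.

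**Figure D1:**
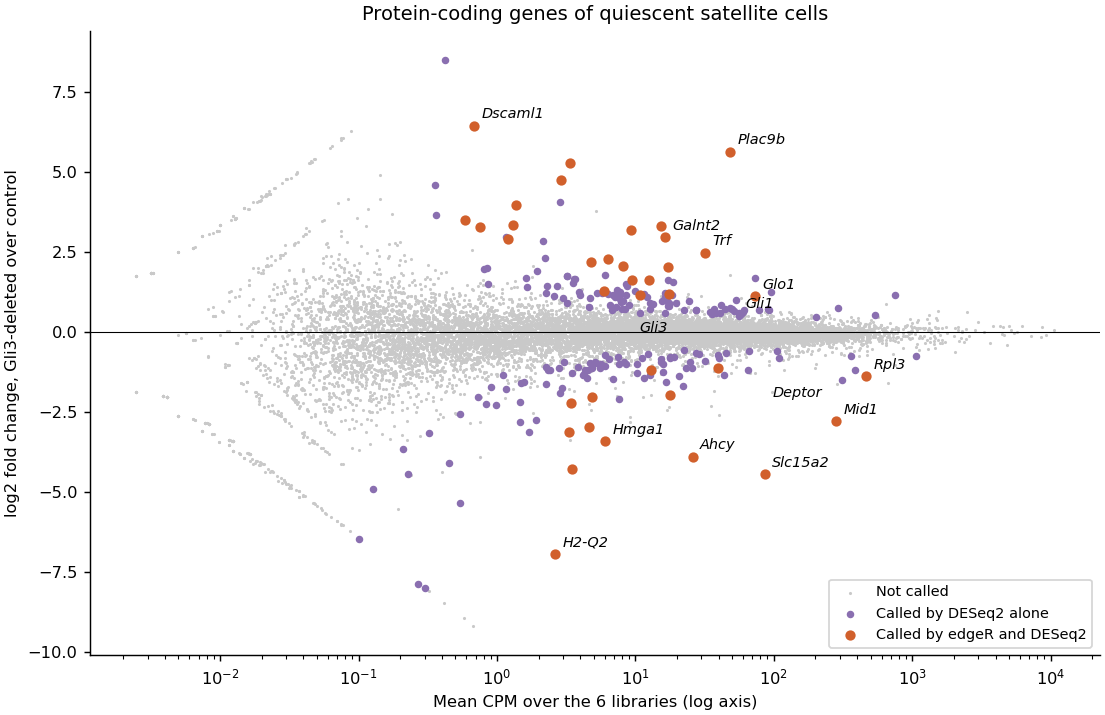
Each point is a protein-coding gene with counts, placed by its mean CPM over the 6 libraries (log axis) and by the log2 fold change of Gli3∆/∆ over Gli3+/+ from edgeR. The 37 genes called by edgeR (orange) spread over a wide range of levels, most of the further genes that DESeq2 alone calls (purple) lie closer to 0 than these, with exceptions such as Tmem254a at 4.05 and Xlr3c, which had no count in any Gli3+/+ library, and Gli3 lies near the line of no change.

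The calls were spread over the range of levels. Of the 9070 genes with a mean of at least 10 CPM, 16 were called by edgeR (0.176%). Of the 3192 genes between 1 and 10 CPM, 18 were called (0.564%), and of the 3869 genes below 1 CPM, 3 (0.0775%). DESeq2 called 99 (1.09%), 100 (3.13%) and 23 (0.594%) in the same ranges. The common biological coefficient of variation between libraries was 0.313.

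**Figure D2:**
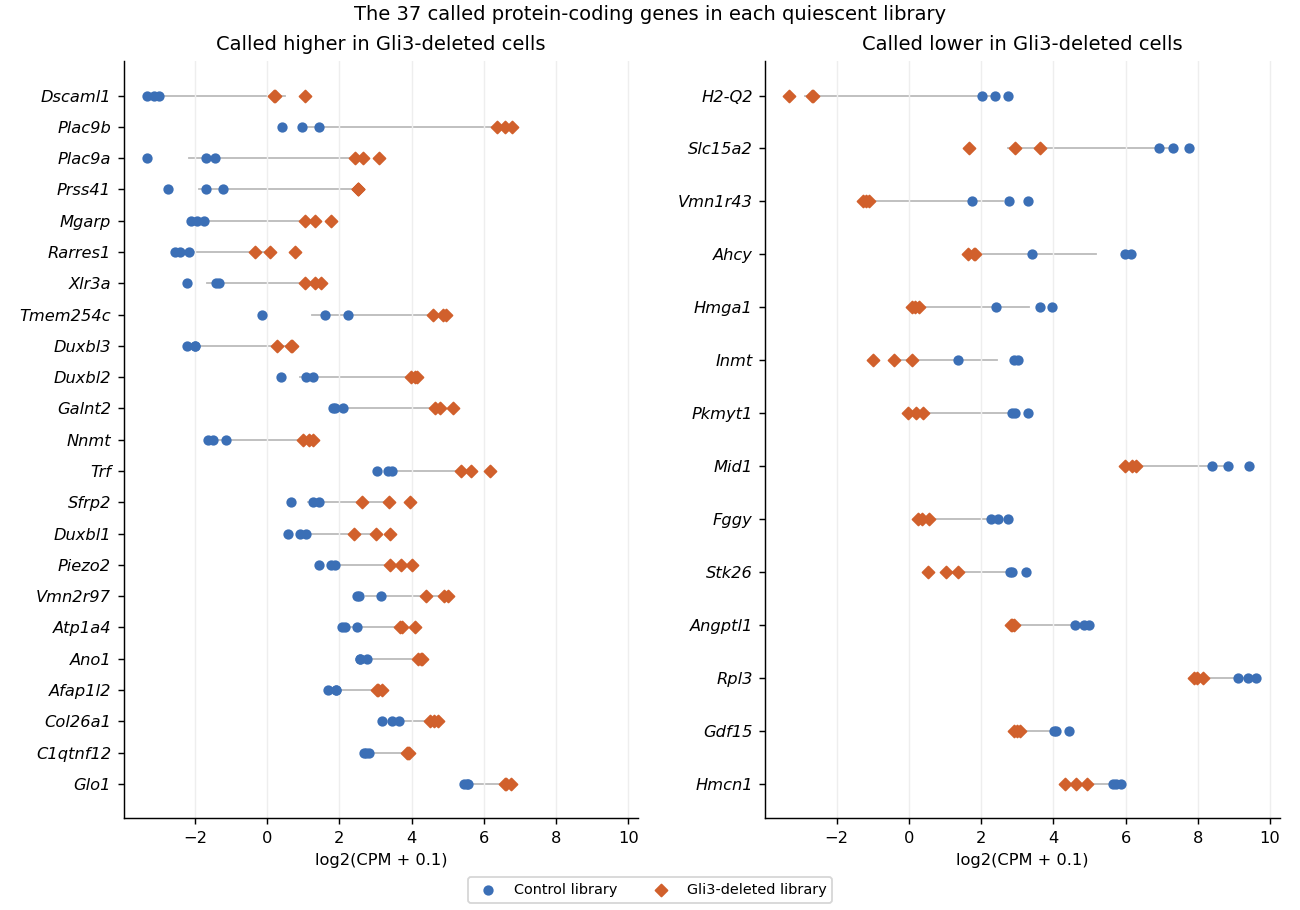
Values of the 37 called genes in each library as log2(CPM + 0.1), with Gli3+/+ (control) libraries as circles, Gli3∆/∆ (Gli3-deleted) libraries as diamonds and a line between the group means on that scale. For every gene the circles and diamonds lie apart, and the gap is widest for Plac9b among the genes that rose and for H2-Q2 and Slc15a2 among those that fell.

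A group of 6 neighboring genes of chromosome 14 rose together, *Plac9a*, *Duxbl1*, *Tmem254c*, *Duxbl2*, *Plac9b* and *Duxbl3*, which lie within 0.382 Mb (25887506 to 26269436). PLAC9 is a small secreted protein, and the Duxbl genes encode double homeobox transcription factors. *Plac9b* was at 1.84, 2.61 and 1.23 CPM in *Gli3*+/+ and at 95.0, 81.8 and 108.7 CPM in *Gli3*∆/∆ libraries. It had the lowest adjusted p of all the genes described here (log2 fold change 5.63, SE 0.29, adjusted p = 0.00011 from edgeR). *Plac9a* was at 0, 0.267 and 0.209 CPM against 8.45, 5.30 and 6.14 CPM (log2 fold change 5.27, SE 0.66). *Duxbl2* went from 1.84 ± 0.571 to 16.7 ± 1.04 CPM, *Duxbl1* from 1.72 ± 0.312 to 7.88 ± 2.61 CPM and *Duxbl3* from 0.138 ± 0.0188 to 1.37 ± 0.216 CPM (SD, n = 3 libraries each). *Tmem254c*, a transmembrane protein gene, was at 4.62, 2.95 and 0.812 CPM against 29.3, 23.9 and 30.7 CPM. Of the 9 tested genes that lie in this interval, 6 were called and all 6 were higher in *Gli3*∆/∆ cells.

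These neighbors are copies of one another, which limits how far their values can be told apart. The coding sequences of *Plac9a* and *Plac9b* (327 bases each) were identical in GENCODE vM21, as were those of *Duxbl1*, *Duxbl2* and *Duxbl3* (1053 bases each) and of *Tmem254a*, *Tmem254b* and *Tmem254c* (390 bases each). The first 60 coding bases of the Plac9 and Duxbl copies are shown with capitals reserved for bases that differ from the first gene of each family, and there are none.
Plac9a: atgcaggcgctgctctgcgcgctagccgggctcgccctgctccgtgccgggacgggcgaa
Plac9b: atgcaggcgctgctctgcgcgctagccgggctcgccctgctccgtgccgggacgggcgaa
Duxbl1: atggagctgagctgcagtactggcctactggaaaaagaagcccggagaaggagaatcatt
Duxbl2: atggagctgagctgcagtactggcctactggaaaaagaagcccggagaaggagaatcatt
Duxbl3: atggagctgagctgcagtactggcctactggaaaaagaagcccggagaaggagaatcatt

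The sequence in front of the Plac9 copies was shared as well. In RefSeq's promoter table (GRCm38.p6), the 250 bases before the start sites of *Plac9a* and *Plac9b* held a common run of 172 bases, at chr14:25902972-25903143 for *Plac9a* and chr14:26182352-26182523 for *Plac9b*, both on the minus strand. The run ends 78 bases before the annotated start of *Plac9a* and directly at that of *Plac9b*. It is printed once because it is the same in both.
Plac9a and Plac9b upstream: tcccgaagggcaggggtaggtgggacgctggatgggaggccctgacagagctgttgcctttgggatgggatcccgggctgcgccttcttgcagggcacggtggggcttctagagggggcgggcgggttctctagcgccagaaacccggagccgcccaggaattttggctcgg

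Because reads that fit several genes are shared out among them by the authors' quantification, each called gene, and each of the 16 uncalled genes with the largest changes described further on, was also summed with every gene whose annotated transcripts hold at least 10% of its 31-base stretches, and the fit was repeated with the sums in place of the single genes. This setting was chosen after the data were seen. It formed 13 sums from 38 genes, and these held 14 of the 37 called genes. The 3 chromosome 14 families kept their rise: *Plac9a*, *Plac9b* and *Gm9780* together went from 3.20 ± 0.278 to 153.8 ± 20.4 CPM (SD, n = 3 libraries each), a log2 fold change of 5.59 (SE 0.18, adjusted p = 5.63e-06 from edgeR). The 3 Duxbl genes together went from 3.70 ± 0.698 to 25.98 ± 2.34 CPM (log2 fold change 2.82, adjusted p = 0.000412 from edgeR), and the 3 Tmem254 genes from 3.84 ± 1.58 to 43.1 ± 5.20 CPM (log2 fold change 3.49, adjusted p = 0.00112 from edgeR).

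Other calls did not outlast the sum. *Rpl3*, a protein of the large ribosomal subunit, was at 549, 674 and 784 CPM in *Gli3*+/+ and 252, 238 and 285 CPM in *Gli3*∆/∆ libraries, and fell by 1.37 on the log2 scale (SE 0.17, adjusted p = 0.00896 from edgeR). Its processed pseudogene *Rpl3-ps1* was at 957, 1001 and 789 CPM against 1247, 1298 and 1512 CPM, in the opposite direction. Summed with *Rpl3-ps1* and 5 further pseudogenes, the level was 1587 ± 85.4 against 1612 ± 163 CPM (SD, n = 3 each) and the log2 fold change 0.02 (adjusted p = 0.999 from edgeR). The coding sequence of *Rpl3* and the aligned stretch of *Rpl3-ps1* differed at 2 of 1209 bases; the first 60 are printed, with the base of the pseudogene that differs in capitals.
Rpl3: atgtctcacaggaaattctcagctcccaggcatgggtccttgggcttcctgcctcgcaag
Rpl3-ps1: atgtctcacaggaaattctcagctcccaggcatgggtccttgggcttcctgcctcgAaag

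*Galnt2* encodes an enzyme that starts mucin-type O-glycosylation. Its values were 3.43, 3.57 and 4.18 CPM in *Gli3*+/+ and 27.5, 35.5 and 24.7 CPM in *Gli3*∆/∆ libraries, a log2 fold change of 2.97 (SE 0.20, adjusted p = 0.000384 from edgeR). The predicted gene *Gm20388*, whose transcripts hold most of the *Galnt2* sequence (88.9% of its 31-base stretches were shared), was at 98.1, 94.8 and 116.8 CPM against 70.3, 85.4 and 97.8 CPM. The sum of the pair was 107 ± 12.2 against 113.7 ± 13.8 CPM (SD, n = 3 each), a log2 fold change of 0.09 (SE 0.15, adjusted p = 0.953 from edgeR). The rise of *Galnt2* was thus not present in the total of the sequence that both genes share.

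*Ahcy*, which hydrolyses S-adenosylhomocysteine, was at 10.4, 71.4 and 63.7 CPM in *Gli3*+/+ and 3.40, 3.01 and 3.44 CPM in *Gli3*∆/∆ libraries. Its sum with 3 genes that hold 68.7%, 35.3% and 11.1% of its 31-base stretches had a log2 fold change of −0.56 (SE 0.23, adjusted p = 0.673 from edgeR). The sum was at 137.9 ± 43.7 against 93.4 ± 10.2 CPM. The first of the 3, *Gm4737*, was at 89.1 ± 11.1 against 89.9 ± 10.05 CPM (SD, n = 3 each). Unlike *Rpl3-ps1* and *Gm20388*, it did not move against the called gene. *Hmga1*, which encodes an AT-hook chromatin protein, was at 12.4, 5.23 and 15.5 CPM against 1.13, 1.01 and 0.964 CPM. *Hmga1b* moved the other way, from 1.49, 0.0889 and 0.696 to 3.99, 3.39 and 3.78 CPM, and the sum had a log2 fold change of −1.31 (SE 0.36, adjusted p = 0.370 from edgeR). *Xlr3a*, of the X-linked lymphocyte-regulated family, rose from 0.229 ± 0.0981 to 2.37 ± 0.377 CPM (SD, n = 3), whereas the sum of *Xlr3a*, *Xlr3b* and *Xlr3c* had a log2 fold change of 1.32 (SE 0.25, adjusted p = 0.103 from edgeR). *Xlr3b* (11.2 ± 3.00 against 25.3 ± 6.53 CPM) and *Xlr3c* (0 against 0.844 ± 0.472 CPM) moved in the same direction. The genotypes did not overlap for the sum. *Xlr3b* and *Xlr3c* each differed from *Xlr3a* at 12 of 681 coding bases, and they were not compared with each other. Coding bases 315 to 374 are shown, with those that differ from *Xlr3a* in capitals.
Xlr3a: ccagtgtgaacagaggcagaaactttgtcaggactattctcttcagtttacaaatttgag
Xlr3b: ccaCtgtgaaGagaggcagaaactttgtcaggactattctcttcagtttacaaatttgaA
Xlr3c: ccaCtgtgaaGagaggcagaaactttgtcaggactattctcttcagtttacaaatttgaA

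The other sums kept their calls. *Trf*, which encodes the iron carrier transferrin, was at 10.1, 10.9 and 8.12 CPM in *Gli3*+/+ and 41.4, 71.2 and 49.8 CPM in *Gli3*∆/∆ libraries (log2 fold change 2.48, SE 0.23, adjusted p = 0.00196 from edgeR), and with its overlapping partner the log2 fold change was 2.10. *Mid1*, a microtubule-associated ubiquitin ligase, was at 334, 457 and 681 CPM against 78.5, 63.6 and 72.7 CPM and fell by 2.78 on the log2 scale (SE 0.26, adjusted p = 0.00201 from edgeR), and by 2.77 with its pseudogene. *H2-Q2*, a class Ib histocompatibility gene, had 823 counts in the *Gli3*+/+ libraries together and 7 in the *Gli3*∆/∆ libraries, a ratio of 133 after scaling for library size (exact 95% interval 64.1 to 331, counting error only). With its neighbor *H2-Q1* it was −2.29 on the log2 scale (SE 0.31, adjusted p = 0.0194 from edgeR). With the 13 sums in place, 28 genes or sums were called, 18 higher and 10 lower.

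**Figure D3:**
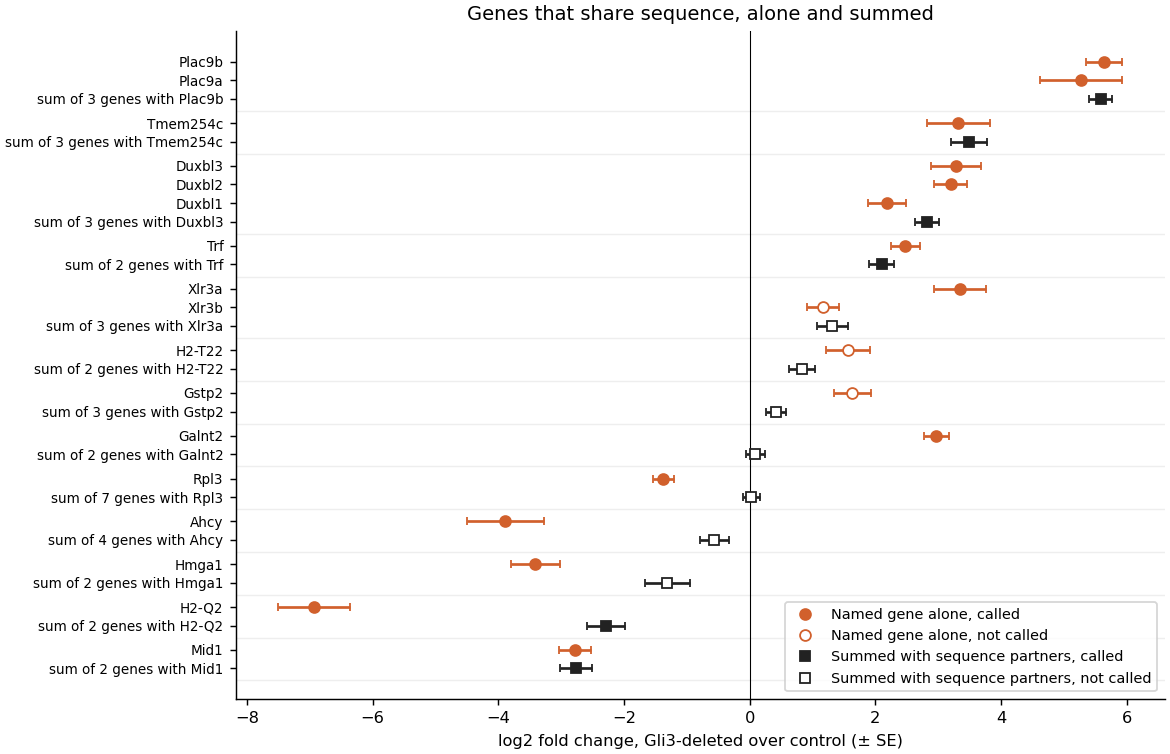
Log2 fold changes of Gli3∆/∆ over Gli3+/+ (± SE, edgeR) for 17 named genes that share sequence with other genes (circles) and for the 13 sums with those genes (squares), filled where called. The sums with Galnt2 and Rpl3 lie at 0.09 and 0.02, while the sums with Plac9b, Tmem254c and Duxbl3 stay above 2 and remain filled.

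The remaining called genes had at most 22.6% of their 31-base stretches in any other gene, and none had a partner above the 10% limit. Among the secreted and matrix proteins, *Sfrp2*, a secreted modulator of Wnt signaling, was at 1.49, 2.30 and 2.62 CPM in *Gli3*+/+ and 10.2, 15.3 and 6.10 CPM in *Gli3*∆/∆ libraries. *Col26a1*, a collagen gene, went from 10.8 ± 1.70 to 24.5 ± 1.92 CPM and *C1qtnf12*, whose product is the secreted factor adipolin, from 6.59 ± 0.293 to 14.8 ± 0.298 CPM (SD, n = 3 each). *Rarres1*, a retinoic acid responsive gene, was near the lower limit of counting, at 0.0942 ± 0.0277 against 1.08 ± 0.466 CPM. Other secreted proteins fell. *Angptl1*, an angiopoietin-like protein, was at 31.8, 24.1 and 28.9 CPM in *Gli3*+/+ and 7.18, 6.998 and 7.47 CPM in *Gli3*∆/∆ libraries (log2 fold change −1.97, SE 0.16, adjusted p = 0.00107 from edgeR). *Hmcn1*, which encodes the basement membrane protein hemicentin, went from 54.1 ± 4.42 to 24.98 ± 5.32 CPM, and *Gdf15*, a stress-induced member of the TGF-β family, from 18.1 ± 2.95 to 7.90 ± 0.49 CPM (SD, n = 3 each).

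Membrane channels, transporters and receptors changed in both directions. *Slc15a2*, a proton-coupled peptide transporter, was at 120.6, 214.7 and 157.6 CPM in *Gli3*+/+ libraries and at 3.07, 7.64 and 12.3 CPM in *Gli3*∆/∆ libraries. It fell by 4.42 on the log2 scale (SE 0.48, adjusted p = 0.00555 from edgeR), about 21.4-fold. *Piezo2*, a mechanically activated cation channel, rose from 2.58, 3.28 and 3.55 to 16.1, 10.4 and 12.96 CPM. *Ano1*, a calcium-activated chloride channel, rose from 6.14 ± 0.514 to 18.8 ± 0.815 CPM and *Atp1a4*, a catalytic subunit of the sodium pump, from 4.64 ± 0.726 to 14.3 ± 2.37 CPM (SD, n = 3 each). The vomeronasal receptor genes *Vmn2r97* and *Vmn1r43* moved apart, the first from 6.68 ± 1.87 to 27.5 ± 5.82 CPM and the second from 6.601 ± 3.30 to 0.34 ± 0.0241 CPM (SD, n = 3 each). *Dscaml1*, an immunoglobulin superfamily adhesion molecule, had 2 counts in the *Gli3*+/+ libraries together and 226 in the *Gli3*∆/∆ libraries, a ratio of 100 after scaling for library size (exact 95% interval 27.4 to 832, counting error only).

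Enzymes and kinases made up most of the rest. *Glo1*, which detoxifies methylglyoxal, was at 47.5, 43.2 and 46.5 CPM in *Gli3*+/+ and 97.6, 95.8 and 107.3 CPM in *Gli3*∆/∆ libraries, a log2 fold change of 1.13 (SE 0.12, adjusted p = 0.00612 from edgeR). Its replicates were close, with a gap between the genotypes many times the spread within either. *Nnmt*, which methylates nicotinamide, rose from 0.278 ± 0.069 to 2.12 ± 0.202 CPM and *Inmt*, an indolethylamine methyltransferase, fell from 5.96 ± 3.04 to 0.673 ± 0.285 CPM (SD, n = 3 each). *Pkmyt1*, a kinase that holds CDK1 inactive before mitosis, fell from 7.15, 9.69 and 7.59 to 0.878, 1.04 and 1.22 CPM (log2 fold change −2.96, SE 0.25, adjusted p = 0.00108 from edgeR). *Stk26*, a germinal center kinase, fell from 7.77 ± 1.32 to 1.91 ± 0.545 CPM and the carbohydrate kinase gene *Fggy* from 5.59 ± 0.914 to 1.22 ± 0.147 CPM (SD, n = 3 each). *Prss41*, a serine protease gene, rose from 0.195 ± 0.139 to 5.61 ± 0.00265 CPM and *Mgarp*, whose product is mitochondrial, from 0.165 ± 0.0327 to 2.56 ± 0.661 CPM. *Afap1l2*, an actin-filament associated adaptor, rose from 3.46 ± 0.31 to 8.45 ± 0.46 CPM (SD, n = 3 each).

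How firmly each call stood differed. With 1 library left out at a time, 21 of the 37 genes stayed called in all 6 fits, and 16 lost the call at least once. *Afap1l2* lost it in all 6 fits, with adjusted p from 0.0511 to 0.156 from edgeR. *Ahcy* (0.278), *Gdf15* (0.183), *Hmcn1* (0.265), *Inmt* (0.281) and *Rarres1* (0.133) lost it in 5 of 6, with the highest adjusted p from edgeR, given in parentheses, without *Gli3*∆/∆ replicate 3, and *Sfrp2* (0.119) in 5 of 6, with the highest without *Gli3*∆/∆ replicate 1. *C1qtnf12* (0.0988), *Col26a1* (0.144), *Duxbl1* (0.108) and *Tmem254c* (0.169) lost it in 4 of 6, again with the highest adjusted p from edgeR without *Gli3*∆/∆ replicate 3. *Rpl3* (0.0589) and *Stk26* (0.0816) lost it in 2, with the highest without *Gli3*∆/∆ replicate 1, and *Atp1a4* (0.0503), *Hmga1* (0.0752) and *Plac9a* (0.0643) lost it only without *Gli3*∆/∆ replicate 3. The count of called genes fell to 24 without that library. Over 13 alternative fits (the 6 with a library left out and 7 of other settings, the sums of copies not among them), 14 genes stayed called: *Angptl1*, *Ano1*, *Duxbl2*, *Fggy*, *Galnt2*, *Glo1*, *Mid1*, *Piezo2*, *Pkmyt1*, *Plac9b*, *Slc15a2*, *Trf*, *Vmn1r43* and *Vmn2r97*.

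The called genes were unevenly placed in the genome. Chromosome 14 held 6 of the 37 (1.08% of its 556 tested genes) and chromosome 17 another 6 (0.746% of 804), against 0.229% over all chromosomes. All 6 on chromosome 14 are the Plac9, Duxbl and Tmem254 genes of the 0.382 Mb interval described above. Their copies share sequence, so the 6 are not separate observations and the share of chromosome 14 rests on this interval. On chromosome 17 the called genes were *Prss41*, *Vmn2r97* and *Glo1*, which rose, and *Pkmyt1*, *Hmga1* and *H2-Q2*, which fell. Of these, *Hmga1* was not called when summed with *Hmga1b*. *Pkmyt1* and *Prss41* lie within 0.118 Mb of each other (23726336 to 23844172). DESeq2 called 26 genes on chromosome 17, or 3.23% of those tested there and 11.7% of its 222 calls, where chromosome 17 has 4.98% of the protein-coding genes. Of these, 20 formed a run from 23726336 to 36042747 in which no gap between called genes exceeded 2 Mb, 10 of them higher and 10 lower, among 344 tested genes (5.81%). The run includes *Rps2*, *Rps18* and the histocompatibility genes *H2-D1*, *H2-Q1*, *H2-Q2*, *H2-Q10* and *H2-T22*. Its borders were drawn from the calls themselves, so these shares are a description.

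**Figure D4:**
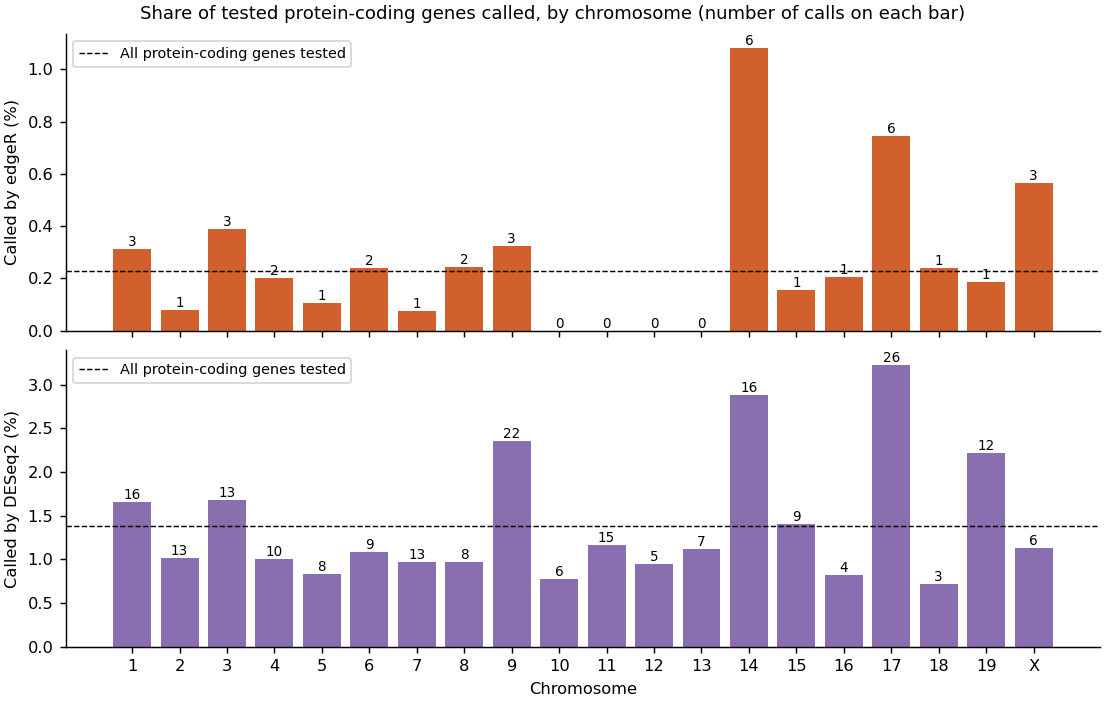
Percentage of tested protein-coding genes on each autosome and the X chromosome called by edgeR (top) and DESeq2 (bottom), with the number of calls on each bar and the share over all chromosomes as a dashed line (0.229% and 1.38%). Among the chromosomes drawn, 14 and 17 stand highest in both panels, at 1.08% and 0.746% with edgeR and 2.88% and 3.23% with DESeq2. The 6 edgeR calls on chromosome 14 are neighboring Plac9, Duxbl and Tmem254 genes, whose copies share sequence. The Y chromosome, with 5 tested genes and 1 DESeq2 call, is left out.

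Genes around the 3 engineered alleles were looked at for comparison, although the *Pax7* and R26R alleles were carried by both genotypes. Within 5 Mb of *Gli3* on chromosome 13, 34 protein-coding genes were tested, and 114 and 76 within the same distance of *Pax7* and of the R26R locus. With edgeR and with DESeq2, 0 of these genes were called, against 0.229% and 1.38% of all protein-coding genes. At such shares sets of this size can hold no call, so the 0 does not set these genes apart. The genotypes did not overlap for 8.82%, 7.89% and 14.5% of them, against 13.1% of all protein-coding genes, and 1, 9 and 5 of them had an unadjusted p under 0.05 with edgeR.

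Beyond the called genes, 659 of the 9070 genes with a mean of at least 10 CPM showed no overlap and a fold change of at least 1.2 without being called by edgeR. With no minimum level or fold, the genotypes did not overlap for 13.1% of all protein-coding genes. The 8 largest increases among the 659 were of *Gdpd3*, *Actn3*, *Gstp2*, *H2-T22*, *Ntn1*, *Lrrk1*, *Cyp4f13* and *Xlr3b*, with log2 fold changes from 1.17 to 1.78. DESeq2 called each of these except *Gdpd3*. *Ntn1*, which encodes the guidance cue netrin 1, was at 42.5, 57.3 and 69.6 CPM in *Gli3*+/+ and 94.8, 146.2 and 158.5 CPM in *Gli3*∆/∆ libraries (adjusted p = 0.0954 from edgeR). *Gstp2*, a glutathione transferase, was at 8.35 ± 3.58 against 25.9 ± 4.52 CPM (SD, n = 3 each; adjusted p = 0.0754 from edgeR). Its copy *Gstp-ps* went the other way, from 6.80, 4.83 and 3.43 to 0, 0.0895 and 0 CPM, and the sum with both copies had a log2 fold change of 0.42 (SE 0.16, adjusted p = 0.632 from edgeR). *H2-T22* also shares sequence. Its log2 fold change was 1.565 alone and 0.83 summed with *H2-T10* (SE 0.21, adjusted p = 0.285 from edgeR for the sum). *Lrrk1*, a kinase gene, was at 12.4, 10.4 and 6.57 against 21.3, 22.3 and 24.7 CPM (adjusted p = 0.0936 from edgeR).

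The largest decreases included those of *Cd109*, *Dapk1*, *Tshr*, *Deptor*, *Adamts4*, *Kcne4* and *Rgs4*, with log2 fold changes from −2.59 to −1.34. *Deptor*, an inhibitory subunit of both mTOR complexes, was at 391, 380 and 602 CPM in *Gli3*+/+ and 113.6, 216.4 and 153.4 CPM in *Gli3*∆/∆ libraries. Its log2 fold change was −1.51 (SE 0.27, adjusted p = 0.0744 from edgeR). DESeq2 called *Deptor*, as it did *Cd109*, *Dapk1*, *Tshr* and *Adamts4*, but not *Kcne4* or *Rgs4*. *Tshr*, the thyrotropin receptor, was at 16.8 ± 5.20 against 6.23 ± 0.913 CPM (SD, n = 3 each; adjusted p = 0.0744 from edgeR). *Rgs4*, a regulator of G protein signaling, shows how 1 library can widen the error: it was at 59.2, 64.1 and 82.1 CPM in *Gli3*+/+ libraries and at 1.99, 29.2 and 2.71 CPM in *Gli3*∆/∆ libraries, and its log2 fold change of −2.59 had an SE of 0.88 (adjusted p = 0.506 from edgeR).

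Schwann cells are the glia of peripheral nerves. Of 9 listed markers of these cells, 8 were lower without overlap (6.26% of all protein-coding genes were), 0 were called by edgeR, 7 had an unadjusted p under 0.05 (7.19% of all), and 3 were called lower by DESeq2. The summed level of the list was 97.0 to 136 CPM in *Gli3*+/+ and 50.7 to 77.8 CPM in *Gli3*∆/∆ libraries, with a median log2 fold change of −0.94. In sorted bulk samples, fewer cells of a type and less RNA per cell cannot be told apart. The Hedgehog ligand gene *Dhh*, also known from Schwann cells, was at 1.79, 1.69 and 1.86 CPM against 0.573, 0.761 and 1.2 CPM (adjusted p = 0.468 from edgeR). Whether the Schwann cell genes had a part in other results was not tested.

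Each pathway list is given by its counts and its median log2 fold change, beside the median of −0.02 over all protein-coding genes, and members are named by the lowest unadjusted p. Of the 17 Hedgehog ligands, receptors and co-receptors in the table, 0 were called by either tool and 3 had an unadjusted p under 0.05; 15 had a higher mean in *Gli3*∆/∆ cells and the median was 0.18. *Hhip*, a Hedgehog-binding inhibitor and itself a target gene, was at 34.3, 42.9 and 31.8 CPM against 56.8, 44.1 and 64.0 CPM (log2 fold change 0.60, SE 0.18, adjusted p = 0.424 from edgeR). *Smo*, the signal transducer of the pathway, was at 117.2, 93.5 and 85.7 CPM against 106, 132.6 and 126.8 CPM, with overlap. Of 28 GLI factors and genes of their processing, 14 were higher and 14 lower, 0 were called by edgeR and 1 had an unadjusted p under 0.05. *Gli1*, the GLI activator that is itself a target gene, was at 44.0, 46.1 and 47.1 CPM in *Gli3*+/+ and 58.0, 70.5 and 67.8 CPM in *Gli3*∆/∆ libraries (log2 fold change 0.52, SE 0.13, adjusted p = 0.263 from edgeR) and was called by DESeq2 only. Of 17 GLI target genes, 10 were higher and 6 lower, 0 were called by edgeR, 2 had an unadjusted p under 0.05, and the median was 0.16.

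The GLI binding motif GACCACCCA was searched on both strands in RefSeq's promoter table (GRCm38.p6), which covers 250 bases before to 50 bases after each annotated start. Of the 37 called genes, 25 had an entry, with 31 promoters in all, and 0 of these held the motif. It was in 83 of all 32851 promoters (0.253%) and in 30 of the 15937 promoters of protein-coding genes described here (0.188%). At such shares a set of 31 promoters would most often hold no motif, so the 0 does not set the called genes apart. It was also in 0 of the 17 promoters of the GLI target list. The search covers these windows only.

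Of 46 genes of the mTOR complexes and their regulators, 21 were higher and 25 lower in *Gli3*∆/∆ cells, 0 were called by edgeR, 2 had an unadjusted p under 0.05, and the median log2 fold change was −0.02. *Deptor* was the gene called by DESeq2. *Mios*, part of the amino acid sensing complex GATOR2, was at 38.9, 42.1 and 55.1 CPM against 30.2, 34.4 and 28.7 CPM (log2 fold change −0.54, SE 0.17, adjusted p = 0.425 from edgeR). Among 33 insulin and IGF signaling genes, 0 were called by either tool and 4 had an unadjusted p under 0.05, with *Irs1*, an insulin receptor adaptor, at 115.9, 157.4 and 126.6 CPM against 191, 172.7 and 162.7 CPM. Glycolysis genes (29 entries, 28 symbols) also had 0 calls by either tool, with 2 unadjusted p under 0.05 and a median of 0.05. *Hk2*, a hexokinase, was at 3.70, 3.68 and 29.8 CPM against 4.29, 2.31 and 2.50 CPM, and its lower mean came from *Gli3*+/+ replicate 3.

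Of 99 entries for subunits of the respiratory chain, 88 had a higher and 11 a lower mean in *Gli3*∆/∆ cells; 30 were higher without overlap (30.3%, against 6.86% of all protein-coding genes higher without overlap), 0 were lower without overlap, and the median log2 fold change was 0.15. Their summed level was 41300 to 42500 CPM in *Gli3*+/+ and 46300 to 47000 CPM in *Gli3*∆/∆ libraries, and mitochondrially encoded genes took 3.49 to 4.02% and 4.29 to 4.33% of all counts. The list includes the mitochondrially encoded subunits, so the sum and this share are not separate observations. Of the 13 mitochondrially encoded genes tested, 8 were among the 30. The nuclear subunits were not summed on their own. With edgeR 0 of the 99 entries were called and 6 had an unadjusted p under 0.05, while DESeq2 called *Atp5g1*. *Atp5g1*, a subunit of the ATP synthase ring, was at 19.8, 20.5 and 23.5 CPM against 32.5, 31.5 and 37.9 CPM (log2 fold change 0.68, SE 0.14, adjusted p = 0.149 from edgeR). *Ndufa7*, of complex I, was at 32.1, 29.9 and 29.3 CPM against 36.1, 42.5 and 46.2 CPM (adjusted p = 0.430 from edgeR).

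Of 84 cytosolic ribosomal protein genes, 69 had a higher and 14 a lower mean, with a median of 0.13, 17 higher and 2 lower without overlap, where 6.86% and 6.26% of all protein-coding genes were. Their summed level was 41500, 44500 and 44300 CPM in *Gli3*+/+ and 43500, 44800 and 53500 CPM in *Gli3*∆/∆ libraries. The genotypes thus overlapped for the sum, and *Gli3*∆/∆ replicate 3 was the high library. *Rpl3* was the gene called by edgeR. *Rps18* was at 555, 332 and 514 CPM against 936, 994 and 1202 CPM (log2 fold change 1.16, SE 0.21, adjusted p = 0.0754 from edgeR), and *Rps2* at 1313, 1356 and 1338 CPM against 718, 770 and 898 CPM (log2 fold change −0.75, SE 0.14, adjusted p = 0.0789 from edgeR). DESeq2 called both. They shared 22.4% and 48.8% of their 31-base stretches with other genes, and they were not summed with those genes, so their direction is uncertain. Apart from these genes and *Rpl3*, shared sequence was not counted for the list.

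**Figure D5:**
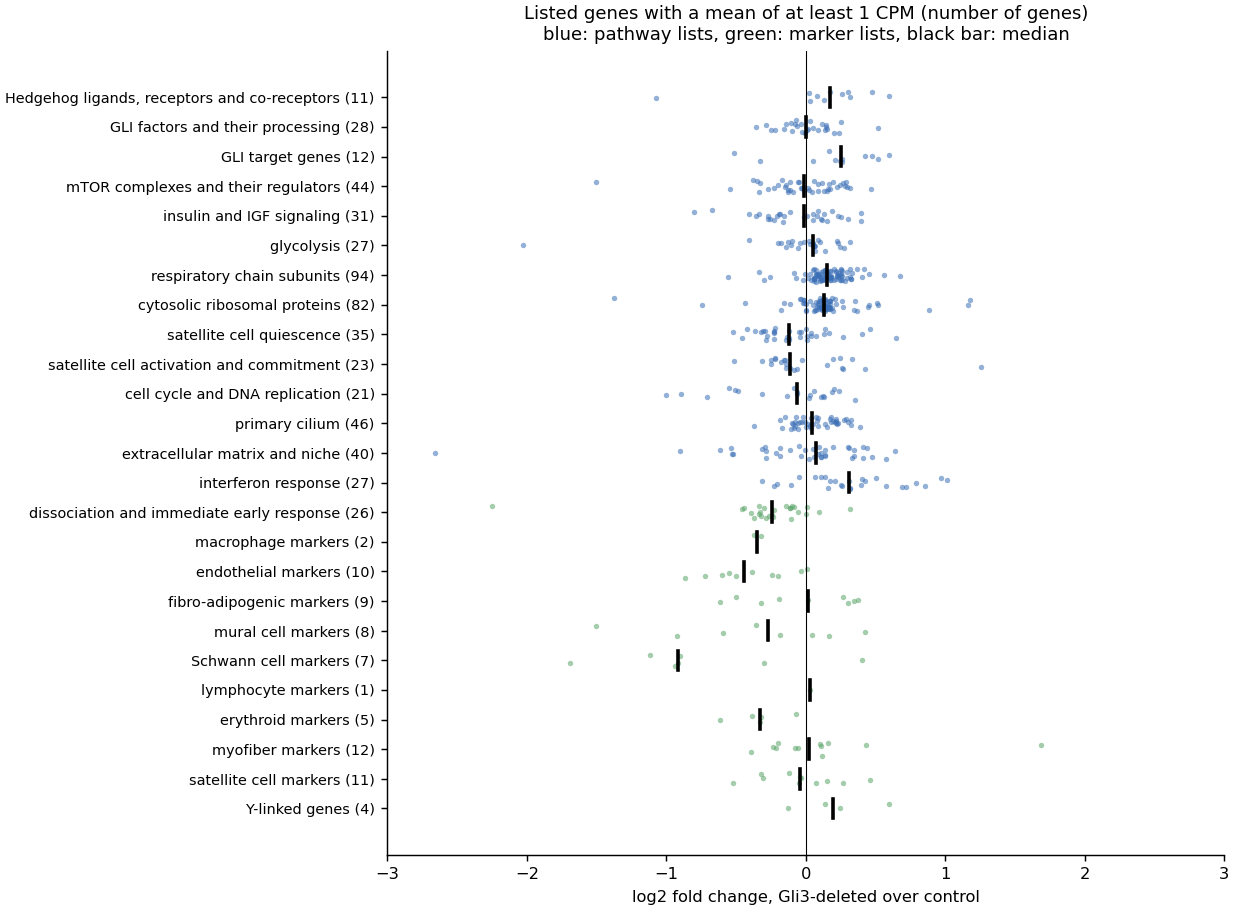
Log2 fold changes of Gli3∆/∆ over Gli3+/+ (edgeR) for the listed genes with a mean of at least 1 CPM, one point per gene, with the median of each list as a black bar; pathway lists are blue and marker lists green. The respiratory chain and ribosomal lists sit close together just above 0 (medians 0.15 and 0.13), and the Schwann cell list lies lowest, at −0.91 for its 7 genes above 1 CPM.

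Lists of the satellite cell program had few changes. Of 35 quiescence genes, 12 were higher and 23 lower, 0 were called by either tool, 3 had an unadjusted p under 0.05, and the median was −0.12. *Dag1*, which encodes dystroglycan, was at 1437, 1014 and 1133 CPM in *Gli3*+/+ and 1735, 2261 and 1613 CPM in *Gli3*∆/∆ libraries (log2 fold change 0.65, SE 0.19, adjusted p = 0.388 from edgeR). *Cdkn1c*, a CDK inhibitor, was at 22.4, 21.8 and 19.2 CPM against 25.9, 28.2 and 29.7 CPM. Of 26 activation and commitment genes, 0 were called by edgeR and 2 had an unadjusted p under 0.05, and DESeq2 called *Myog*. *Myog*, a transcription factor of muscle differentiation, was at 4.94, 2.61 and 6.31 CPM against 14.2, 9.67 and 9.05 CPM (log2 fold change 1.25, SE 0.33, adjusted p = 0.297 from edgeR). Of 30 cell cycle and DNA replication genes, 0 were called by edgeR, 2 had an unadjusted p under 0.05, and the median was −0.08. DESeq2 called *Mcm6*, a subunit of the replicative helicase, which was at 19.9, 22.5 and 21.5 CPM against 8.45, 14.3 and 9.03 CPM (log2 fold change −1.01, SE 0.22, adjusted p = 0.153 from edgeR).

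The primary cilium list (46 entries, 45 symbols) had 0 calls by either tool, 1 unadjusted p under 0.05 and a median of 0.04. *Bbs9*, of the BBSome, was at 21.3, 22.9 and 20.2 CPM against 16.8, 15.9 and 17.0 CPM (adjusted p = 0.577 from edgeR). The 41 extracellular matrix and niche genes had 0 calls by either tool, 7 unadjusted p under 0.05 and a median of 0.06. *Adamts5*, a proteoglycan-cleaving protease, was at 182.8, 248.5 and 138.9 CPM against 322, 277 and 289.5 CPM (log2 fold change 0.64, SE 0.21, adjusted p = 0.462 from edgeR). Of 31 interferon response genes, 23 had a higher mean in *Gli3*∆/∆ cells, 9 were higher and 0 lower without overlap (6.86% of all protein-coding genes were higher without overlap), 0 were called by either tool, 7 had an unadjusted p under 0.05, and the median was 0.26. *Bst2*, an antiviral membrane protein, was at 6.08, 6.003 and 4.60 CPM against 7.29, 10.7 and 10.9 CPM (adjusted p = 0.375 from edgeR), and *Ifit1* at 2.58, 1.79 and 1.23 CPM against 3.51, 3.60 and 4.19 CPM (adjusted p = 0.424 from edgeR).

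Markers of sorting stress and of other cells were counted as well. Of 26 dissociation and immediate early genes, 23 had a lower mean in *Gli3*∆/∆ cells, 4 of them without overlap (6.26% of all protein-coding genes were), with a median of −0.24, and summed levels of 74500, 55200 and 55900 CPM in *Gli3*+/+ and 53600, 54900 and 56900 CPM in *Gli3*∆/∆ libraries. For this sum, though not for every gene of the list, *Gli3*+/+ replicate 1 was thus the high library, and the other 5 overlapped. It was also highest for the summed macrophage (33.8 CPM against 12.1 to 20.2 CPM in the others), endothelial (194 against 90.6 to 143 CPM) and erythroid markers (373 against 33.8 to 169 CPM). Among these lists and the lymphocyte (1.85 to 3.07 CPM), fibro-adipogenic (4640 to 7180 CPM) and mural cell markers (1770 to 2710 CPM), 0 genes were called by edgeR. An unadjusted p under 0.05 was reached by 2 of 26 dissociation, 1 of 10 endothelial and 4 of 8 mural genes. In the other lists named 0 genes reached it, and of all protein-coding genes 7.19% did. Of the 4 mural genes, *Abcc9*, *Myh11* and *Rgs5* were lower and *Cspg4* was higher. *Abcc9*, a mural potassium channel subunit, was called by DESeq2. Most of the mural sum was *Notch3* (1328 to 2458 CPM), which is also on the quiescence list. Other mural markers included *Pdgfrb* (6.03 to 10.8 CPM) and *Acta2* (101 to 347 CPM). Most of the fibro-adipogenic sum was *Col3a1* (1952 to 3624 CPM) and *Gsn* (2001 to 2657 CPM). Others of that list included *Pdgfra* (1.65 to 3.80 CPM) and *Dpt* (378 to 536 CPM). Of 13 myofiber markers, 0 were called by edgeR, 2 had an unadjusted p under 0.05 and 2 were higher without overlap (6.86% of all protein-coding genes were), and the summed level was 79.2 to 135 CPM in *Gli3*+/+ and 162 to 201 CPM in *Gli3*∆/∆ libraries. *Actn3*, the fast-fiber α-actinin, accounted for most of that difference, at 15.4, 28.7 and 59.1 CPM against 99.3, 117.2 and 115.5 CPM (log2 fold change 1.69, SE 0.40, adjusted p = 0.222 from edgeR), while *Acta1* and *Ckm* overlapped. Of the 4 Y-linked genes, 1 (*Uty*) was called higher by DESeq2, and the summed level was 336 to 399 CPM against 364 to 439 CPM. Their part in the results above was not tested.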

How the data were processed

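RNA from sorted satellite cells was sequenced as directional poly(A) libraries. The authors quantified reads with salmon on GRCm38 with GENCODE vM19, summarised them per gene with tximport, and deposited estimated counts of genes that passed their low-count filter; 49.2% of the values used here are not whole, and they were rounded. Salmon shares reads among genes of like sequence, so single copies are uncertain. Only the biotype was read from the authors' comparison tables, which also hold their own fold changes and p-values, and 6 further per-sample columns were not used.

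Genotypes were compared in R 4.3.3 with edgeR 4.0.16 (TMM, quasi-likelihood test, Benjamini-Hochberg adjustment over all 25093 genes; a call needed an adjusted p below 0.05 and a 1.2-fold change), in the 6 quiescent libraries and without covariates. DESeq2 1.42.0, limma 3.58.1 (voom), other scalings, filters and folds, a replicate block and leaving out each library were alternatives. The test was checked on simulated data. Libraries are pools of mice, and p-values measure the spread between them. With 3 against 3, a two-sided exact permutation test of a single value cannot go below 0.1. Intervals of counts cover counting error only.

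Named genes were *Gli3*, all called genes, the 8 largest rises and falls among uncalled genes of at least 10 CPM whose groups did not overlap, and, in each list, called genes and those of lowest unadjusted p; 1 gene that the rule names is not reported here. The members and lists were chosen with earlier results of these data known. Positions and transcripts are of GENCODE vM21 (GRCm38), which placed 25080 genes, and 96.3% of gene IDs had the same version there.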

Additional observations from a re-analysis of the deposited data

How the results depend on the processing

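DESeq2 called 222 protein-coding genes, 121 higher and 101 lower, against 37, 23 and 14 with edgeR. Leaving out 1 library gave 24 to 42 called genes, 16 to 27 higher and 8 to 16 lower, with the low counts without *Gli3*∆/∆ replicate 3, and moved the log2 fold change of Gli3 in quiescent cells from −0.372 to −0.0283, never past the threshold. Asking for 10 counts in every library left 25 calls, 14 of them higher. Of the 37 calls, 13 were lost, 9 of them in genes near 0 in one genotype that were then not tested. The others lost, *Inmt*, *Ahcy*, *Sfrp2* and *Hmcn1*, were tested and not called. With sums of copies, which include the reads of its pseudogenes, *Rpl3* had a log2 fold change of 0.023 (SE 0.134, adjusted p = 0.999 from edgeR), not distinguishable from 0, and 28 genes or sums were called. Limma voom called 36 genes, 29 of them among the 37 of the main fit. With edgeR's own filter 37 genes were called, 34 of them shared with the main fit. The count was 37 or 38 with other scalings, with no minimum fold and with a minimum fold of 2.

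With the replicate block 32 genes were called, 20 higher and 12 lower. The deviations of same-numbered libraries correlated at −0.322, 0.00132 and −0.1, so the numbers gave no ground for pairing and none was assumed. Differently numbered libraries of the 2 genotypes correlated at −0.29 to 0.402. The highest value was for *Gli3*+/+ replicate 1 with *Gli3*∆/∆ replicate 2. Whether libraries of the 2 genotypes shared a batch was not tested. Genes of few counts, copies of one sequence and exon 8 itself are where depth and gene-level counts limit what can be read.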
